A study of Mus musculus with 3 samples.

Results

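The cells described here are those to which the authors' cell annotation gave the class MES_EPI-diff in single-cell RNA sequencing of mouse sciatic nerve mesenchyme. They were selected by that class name alone and numbered 117 of the 7234 annotated cells found in the matrices, with 22 cells in the bridge region at 21 days after injury, 94 cells in the bridge at 7 days and 1 cell in intact nerve. They were set against MES_EPI cells (1027 at day 21 and 676 at day 7) and MES_DIFF cells (387 and 308) of the same libraries. The tendon part of the working name "tendon-like epineurial-derived cells" was set beside the level of Tnmd, Scx, Chodl, Thbs4 and Col12a1. The origin in that name was not tested. The sources used here do not spell out what the class names stand for.

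All 3 libraries came from mice in which a Pdgfrb-cre/ERT2 transgene, a Cre recombinase fused to a mutated oestrogen receptor and active only in cells that use the Pdgfrb promoter, had switched on the R26-TomatoLSL reporter, so that every group carried both alleles. Each library was made from a pool of nerves that had been taken apart with hyaluronidase and collagenase, from which TdTomato-positive cells were sorted, and only the intact nerve was treated with myelin-removal beads. The groups were the 21dpi bridge, the 7dpi bridge and the intact sciatic nerve, the bridge being the tissue that grows between nerve stumps after injury. There was 1 library in each group, no replicate of any value, and the sources used here do not give the number, age or sex of the pooled animals.

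Tendon cells build parallel fibrils of type I collagen and are recognised by the transcription factors Scx and Mkx, by the membrane protein Tnmd, and by fibril-associated proteins such as Thbs4, Comp, Fmod and Col12a1. The epineurium is the outer connective tissue sheath of a nerve, and its fibroblasts carry Pi16, Dpp4 and Ly6c1, as adventitial fibroblasts do elsewhere. After a nerve is cut, mesenchymal cells of the sheath enter the gap and lay down the matrix of the bridge.

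Levels are given in CPM, the UMIs (individually barcoded transcripts) of a gene summed over all cells of a class in a library, per 1000000 UMIs of that sum. The MES_EPI-diff sums held 261884 UMIs at day 21 and 1959324 at day 7. The median cell had 10862 UMIs and 3048 genes at day 21, with a range of 4959 to 30777 UMIs, and 21498 UMIs and 4226 genes at day 7, with a range of 3507 to 49852 UMIs. At day 21 the MES_EPI and MES_DIFF medians were 9666 and 9178 UMIs, and at day 7 they were 19883.5 and 26050 UMIs. TdTomato itself stood at 61.1 CPM in MES_EPI-diff cells at day 21 and 92.9 CPM at day 7. All 95% intervals are Poisson for levels, Clopper-Pearson for shares and conditional binomial for ratios; they cover counting error only, and cells of 1 library are not replicates, so no test was made. The class was drawn by the authors from the expression of these same cells, and its differences from other classes are therefore a description of it. Across the 3 libraries 58, 41 and 41 barcodes were shared between pairs, and none of them belonged to a MES_EPI-diff cell.

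The class was rare in intact nerve and was most frequent at day 7. It made up 1 of 1343 annotated cells in intact nerve (0.0745%, interval 0.00189% to 0.414%), 94 of 1780 at day 7 (5.28%, 4.29% to 6.42%) and 22 of 4111 at day 21 (0.535%, 0.336% to 0.809%). The intact cell had 12576 UMIs, among them 120 of Col1a1, 22 of Postn and 3 of Col12a1, and 0 of Tnmd, Scx, Chodl, Thbs4, Fmod and TdTomato. With 3 counts taken as the limit that a count of 0 allows, 0 of 12576 UMIs allow a level of up to 238.5 CPM. The class sums were above this limit for Thbs4 (6094 CPM at day 21 and 1855 CPM at day 7) and Tnmd (2058 and 345 CPM). Scx, Chodl and Fmod were above it at day 21 (512, 573 and 1111 CPM) and below it at day 7 (140, 22.5 and 152 CPM). The intact cell thus lay below either class sum in Thbs4 and Tnmd, but could not be assessed against those lower day 7 levels. Each share comes from 1 sorted pool, so time and pool cannot be told apart.

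The promoters of the markers are shown because these genes were high together in the class, and because Scx belongs to the basic helix-loop-helix factors, which bind the motif CANNTG. The sequences are RefSeq promoters on GRCm38.p6, from 250 bases before to 50 bases after the gene start in RefSeq, 5′ to 3′ on the gene's own strand, with each CANNTG in capitals. Of the 6 genes looked up, 4 had an entry. The Tnmd gene lies at chrX:133850980-133865577 on the plus strand, Thbs4 at chr13:92751590-92794818 and Col12a1 at chr9:79598991-79718831 on the minus strand, and Fmod at chr1:134037254-134048277 on the plus strand, by GENCODE M21 on the same assembly; the Tnmd starts of the 2 annotations differ.
Tnmd promoter, chrX:133850758-133851057, plus strand: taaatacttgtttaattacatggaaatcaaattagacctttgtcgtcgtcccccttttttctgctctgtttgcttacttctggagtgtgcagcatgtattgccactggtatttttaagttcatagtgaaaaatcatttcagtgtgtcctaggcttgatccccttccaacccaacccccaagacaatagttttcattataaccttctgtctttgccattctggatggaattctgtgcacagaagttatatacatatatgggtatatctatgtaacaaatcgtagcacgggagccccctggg
Chodl promoter, chr16:78930698-78930997, plus strand: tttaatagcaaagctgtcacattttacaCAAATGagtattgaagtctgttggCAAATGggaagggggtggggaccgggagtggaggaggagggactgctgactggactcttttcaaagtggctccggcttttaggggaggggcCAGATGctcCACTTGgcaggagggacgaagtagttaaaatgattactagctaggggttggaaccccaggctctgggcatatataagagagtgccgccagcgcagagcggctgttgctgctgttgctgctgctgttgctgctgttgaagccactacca
Thbs4 promoter, chr13:92794769-92795068, minus strand: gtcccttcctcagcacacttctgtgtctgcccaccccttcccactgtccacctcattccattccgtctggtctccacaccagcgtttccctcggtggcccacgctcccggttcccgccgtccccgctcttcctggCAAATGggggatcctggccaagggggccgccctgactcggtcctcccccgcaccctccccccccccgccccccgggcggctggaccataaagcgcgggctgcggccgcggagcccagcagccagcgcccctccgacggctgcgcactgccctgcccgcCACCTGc
Fmod promoter, chr1:134037004-134037303, plus strand: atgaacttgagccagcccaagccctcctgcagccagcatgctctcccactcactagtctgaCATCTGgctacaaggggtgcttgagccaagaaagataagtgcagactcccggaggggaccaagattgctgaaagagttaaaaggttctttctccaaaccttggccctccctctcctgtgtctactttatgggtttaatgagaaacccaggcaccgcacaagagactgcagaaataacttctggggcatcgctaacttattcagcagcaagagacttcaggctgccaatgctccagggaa
The motif, which reads the same on both strands, occurs 4 times in the Chodl window, 2 times in that of Thbs4, 1 time in that of Fmod and 0 times in that of Tnmd. It was present in 72.3% of all 32851 RefSeq mouse promoters of this length, with a median of 1 per promoter, so a match is common and is only a description of these letters.

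At day 21 all 5 markers were higher in MES_EPI-diff cells than in both other classes. Tnmd, the membrane protein tenomodulin of mature tendon, had 2058 CPM in MES_EPI-diff, 15.4 CPM in MES_EPI and 27.4 CPM in MES_DIFF. Its level was 133-fold that of MES_EPI (interval 111.5 to 160.2) and 75.2-fold that of MES_DIFF (61.0 to 93.5). Scx, the tendon transcription factor scleraxis, had 512 CPM in MES_EPI-diff from 134 UMIs, against 0.680 CPM from 7 UMIs in MES_EPI and 0 UMIs in MES_DIFF. That is at least 667-fold higher than in MES_DIFF, with 3 counts taken as the floor of the class sum. Scx was thus near the limit of detection in the other classes, while Tnmd was low in them.

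Chodl, the C-type lectin chondrolectin, had 573 CPM in MES_EPI-diff from 150 UMIs, against 3 UMIs in the whole MES_EPI sum and 3 in the MES_DIFF sum. Its ratio to MES_EPI was 1967 with an interval of 660.2 to 9645, which shows how little those 3 UMIs fix it. Thbs4, a thrombospondin of tendon and muscle matrix, had 6094 CPM in MES_EPI-diff, 193 CPM in MES_EPI and 207 CPM in MES_DIFF, which is 31.6-fold (29.6 to 33.8) and 29.4-fold (27.0 to 32.0). Col12a1, a collagen that sits on the surface of type I fibrils, had 1367 CPM in MES_EPI-diff, 119 CPM in MES_EPI and 194 CPM in MES_DIFF. Col12a1, found in 527 of the 1027 MES_EPI cells against 234 for Thbs4, was the most widely detected of the 5 there and showed the smallest ratios, 11.5 (10.2 to 12.9) to MES_EPI and 7.04 (6.19 to 7.99) to MES_DIFF.

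At day 7, 4 of the markers were again higher in MES_EPI-diff than in both other classes, at levels below those of day 21 in MES_EPI-diff. Tnmd had 345 CPM in MES_EPI-diff, 40.1 CPM in MES_EPI and 3.00 CPM in MES_DIFF, and Scx had 140 CPM in MES_EPI-diff, 3.47 CPM in MES_EPI and 3.12 CPM in MES_DIFF. Thbs4 had 1855 CPM in MES_EPI-diff, 385 CPM in MES_EPI and 298 CPM in MES_DIFF. Col12a1 had 1159 CPM in MES_EPI-diff, 355 CPM in MES_EPI and 293 CPM in MES_DIFF. Ratios to MES_EPI were 8.61 (7.68 to 9.65) for Tnmd, 40.5 (29.6 to 56.4) for Scx, 4.82 (4.62 to 5.03) for Thbs4 and 3.26 (3.10 to 3.43) for Col12a1. Chodl, at 22.5 CPM, stayed under the 50 CPM set as the minimum for counting a difference, and 33 of its 44 UMIs lay in 2 cells. The class sums thus had more of all 5 marker genes at day 21 and of 4 at day 7, when Chodl was carried by few cells. The class was drawn from the expression of these same cells, so this describes the class and does not test its name. The epineurial origin in the name was not tested.

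**Figure D1:**
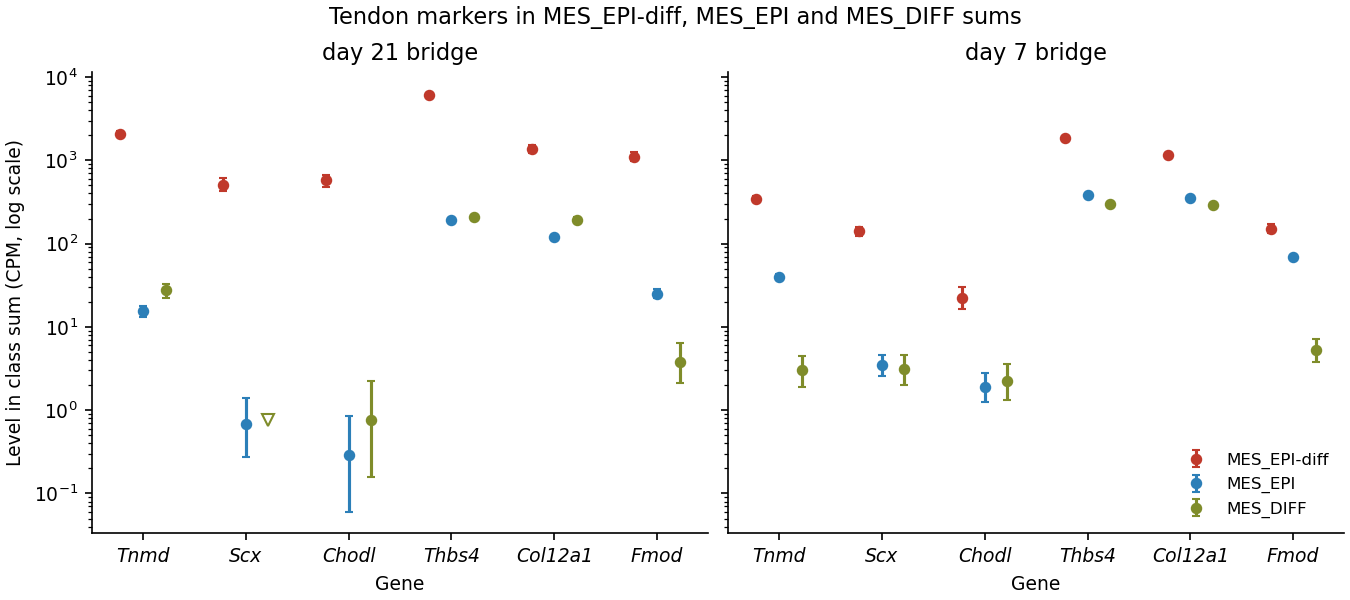
Level (CPM, log scale) of the 5 markers and of Fmod in the MES_EPI-diff, MES_EPI and MES_DIFF sums of the day 21 and day 7 libraries; points are class sums, bars are 95% Poisson intervals, and open triangles mark the level of 3 UMIs where a sum had 0. At day 21 Scx stands at 512 CPM in MES_EPI-diff and at 0.680 CPM in MES_EPI, and at day 7 at 140 and 3.47 CPM.

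The class held a large part of the Scx, Tnmd and day 21 Chodl UMIs of a library, and a smaller part of the other markers. At day 21 the 22 cells held 539 of the library's 1211 Tnmd UMIs (44.5%), 134 of 180 Scx UMIs (74.4%) and 150 of 177 Chodl UMIs (84.75%), counted over all barcodes. At day 7 the 94 cells held 676 of 1700 Tnmd UMIs (39.8%) and 275 of 555 Scx UMIs (49.55%), and 44 of 147 Chodl UMIs (29.9%). Of Col12a1 it held 9.36% at day 21 and 15.5% at day 7, and of Thbs4 10.45% and 13.9%. In intact nerve 0 Scx UMIs were found in any barcode. Thbs4 had 862 CPM in MES_ENDO cells and 383.5 CPM in MES_PERI cells at day 21, so Thbs4 alone did not mark the class.

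Counted per cell, Thbs4 and Col12a1 were found in nearly every MES_EPI-diff cell and the other markers in some of them. At day 21, Thbs4 and Col12a1 had a UMI in 22 of 22 cells, Tnmd in 17 (77.3%, 54.6% to 92.2%), Scx in 15 (68.2%) and Chodl in 14 (63.6%). At day 7, Thbs4 had a UMI in 94 of 94 cells, Col12a1 in 93, Scx in 56 (59.6%), Tnmd in 42 (44.7%, 34.4% to 55.3%) and Chodl in 9 (9.57%). In the other classes Tnmd had a UMI in 55 of 1027 MES_EPI cells (5.36%) and 44 of 387 MES_DIFF cells (11.4%) at day 21, and in 74 of 676 (10.95%) and 11 of 308 (3.57%) at day 7. In classes not compared here a Tnmd UMI was found in 51 of 487 MES_ENDO cells, 6.72% of MES_DIV and 3.43% of MES_PERI cells at day 21 (medians of 8649, 11429 and 5829 UMIs), and in 0.392%, 7.28% and 3.32% at day 7 (medians of 15143, 24149.5 and 15443 UMIs). For Scx these shares were 0%, 0% and 0.0483% at day 21 and 0.784%, 6.31% and 1.245% at day 7.

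Because day 7 cells were deeper, each cell was also thinned to 2000 UMIs. The shares of MES_EPI-diff cells with a UMI were then 63.6% at day 21 and 33.0% at day 7 for Tnmd, 50% and 26.6% for Scx, and 40.9% and 5.32% for Chodl. Without thinning, all 5 markers were found together in 10 of 22 cells at day 21 and 6 of 94 at day 7, and at least 4 of them in 15 and 30 cells. In thinned cells all 5 were found in 5 and 4 cells, and at least 4 in 9 and 13. Among the other annotated cells, without thinning, all 5 were found in 2 of 676 MES_EPI cells and 3 of 206 MES_DIV cells at day 7, and in 0 of the 1027 MES_EPI, 387 MES_DIFF, 487 MES_ENDO, 2069 MES_PERI and 119 MES_DIV cells at day 21.

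The wider list of 14 tenocyte markers gave a similar picture at day 21 and a thinner one at day 7. It includes the 5 markers above, so its counts partly restate them. A difference was counted where a gene had at least 50 CPM in the higher sum and differed at least 2-fold. Against MES_EPI at day 21, 11 of 13 members that passed the minimum were higher and 1 lower, with a median log2 ratio of 5.47, beside a median of 0.07 over all 3091 genes, of which 7.51% were higher and 9.71% lower. Against MES_DIFF at day 21, 11 of 13 were higher and 0 lower, with a median of 6.52, beside −0.11 over 3271 genes, of which 6.85% were higher and 10.9% lower. Of these 13 genes 4 had 0 UMIs in MES_DIFF, and with those at their lower bound the median was also 6.52. The shift of −0.11 in the median of all genes applies to both comparisons with MES_DIFF. Members that passed only because they were high in 1 of the classes had to differ, so these counts, and those of the lists that follow, describe the list and support nothing.

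Among the structural members at day 21, Fmod, the proteoglycan fibromodulin that controls fibril thickness, had 1111 CPM in MES_EPI-diff, 25.0 CPM in MES_EPI and 3.84 CPM in MES_DIFF. Comp, a pentameric matrix protein, had 118 CPM in MES_EPI-diff, 4.47 CPM in MES_EPI and 0 UMIs in MES_DIFF, at least 154-fold higher than in MES_DIFF. Cilp2, a matrix protein of the cartilage intermediate layer family, had 160 CPM in MES_EPI-diff, 1.46 CPM in MES_EPI and 0 UMIs in MES_DIFF, at least 209-fold higher than in MES_DIFF. Comp and Cilp2 were thus low in both other classes, while Fmod was also found in MES_PERI cells, which held 552 of the library's 1229 Fmod UMIs (44.9%) at 41.3 CPM, against 291 UMIs (23.7%) in MES_EPI-diff.

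Kera, the corneal and tendon proteoglycan keratocan, had 80.2 CPM in MES_EPI-diff from 21 UMIs in 4 cells, against 4 UMIs in MES_EPI and 3 in MES_DIFF. The long pentraxin Ptx4 had 210 CPM from 55 UMIs in 11 of the 22 cells, against 1 UMI in MES_EPI and 0 in MES_DIFF. Col22a1, a collagen of the muscle and tendon junction, had 115 CPM from 30 UMIs in 6 cells and 0 UMIs in both other sums, at least 393-fold higher than in MES_EPI and at least 149-fold higher than in MES_DIFF. Each of these genes thus came from part of the 22 cells. Epyc, the proteoglycan epiphycan, had 115 CPM, but its 30 UMIs lay in 2 cells.

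A pair of list members went the other way or did not differ. Col14a1, another fibril-associated collagen, had 183 CPM in MES_EPI-diff, against 621 CPM in MES_EPI and 249 CPM in MES_DIFF. Clec11a, a growth factor of bone marrow stroma, had 76.4 CPM in MES_EPI-diff, 75.7 CPM in MES_EPI and 94.3 CPM in MES_DIFF. Mkx, the tendon homeobox factor mohawk, stayed under the minimum at 26.7 CPM from 7 UMIs in 7 cells, with 0.971 CPM in MES_EPI and 0.511 CPM in MES_DIFF. Its ratio to MES_EPI was 27.5, with an interval of 8.90 to 80.1. Of the 12 genes of a list of tendon transcription factors, 5 passed the minimum at day 21. Against MES_EPI 2 of them, Scx and Egr2, were higher and 0 lower, beside 7.51% higher and 9.71% lower over all genes.

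At day 7, 6 of 8 tenocyte members were higher than in MES_EPI and 1 lower, with a median log2 ratio of 1.96. Over all 2889 genes the median was 0.08, and 3.12% were higher and 8.17% lower. Of the 8 members, 4 were among the 5 markers above, and all 4 were higher. Against MES_DIFF 7 of 8 were higher and 0 lower, with a median of 2.31 over the 8, beside −0.11 over 2916 genes, of which 2.74% were higher and 5.45% lower. Fmod had 152 CPM in MES_EPI-diff, 68.9 CPM in MES_EPI and 5.25 CPM in MES_DIFF. Fibin, a secreted protein named for fin bud initiation in zebrafish, had 654 CPM in MES_EPI-diff, 142 CPM in MES_EPI and 183 CPM in MES_DIFF. Comp had 26.0 CPM in MES_EPI-diff and 20.6 CPM in MES_EPI, a ratio of 1.26 whose interval of 0.919 to 1.71 includes 1, and 0.375 CPM in MES_DIFF. Kera, Cilp2, Ptx4 and Col22a1 were at 2.04, 2.55, 8.17 and 4.08 CPM in MES_EPI-diff at day 7. Mkx, also under the minimum, had 6.13 CPM in MES_EPI-diff (3.17 to 10.7), 4.87 CPM in MES_EPI (3.77 to 6.20) and 1.75 CPM in MES_DIFF. It had a UMI in 10 of 94 MES_EPI-diff cells and 48 of 676 MES_EPI cells, so it hardly set the class apart from MES_EPI at day 7.

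Set against each other, the class sums of the 2 days differed in most tenocyte markers. Of 13 members 9 were higher at day 21 than at day 7 and 1 lower, with a median log2 ratio of 2.19, beside −0.003 over 2973 genes, of which 9.82% were higher and 5.08% lower. Tnmd was 5.97-fold higher at day 21 (5.32 to 6.69), Scx 3.65-fold (2.943 to 4.498), Chodl 25.5-fold (18.1 to 36.6), Thbs4 3.29-fold (3.10 to 3.49) and Fmod 7.33-fold (6.22 to 8.65). Col12a1 was similar at 1367 CPM on day 21 and 1159 CPM on day 7. Weighting each cell alike in place of each UMI gave log2 ratios of 1.89 in place of 2.58 for Tnmd and 0.88 in place of 1.87 for Scx. The libraries differ in time, depth and pooled animals, which cannot be told apart, and in sums fewer expressing cells and less RNA per cell cannot be told apart either.

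**Figure D2:**
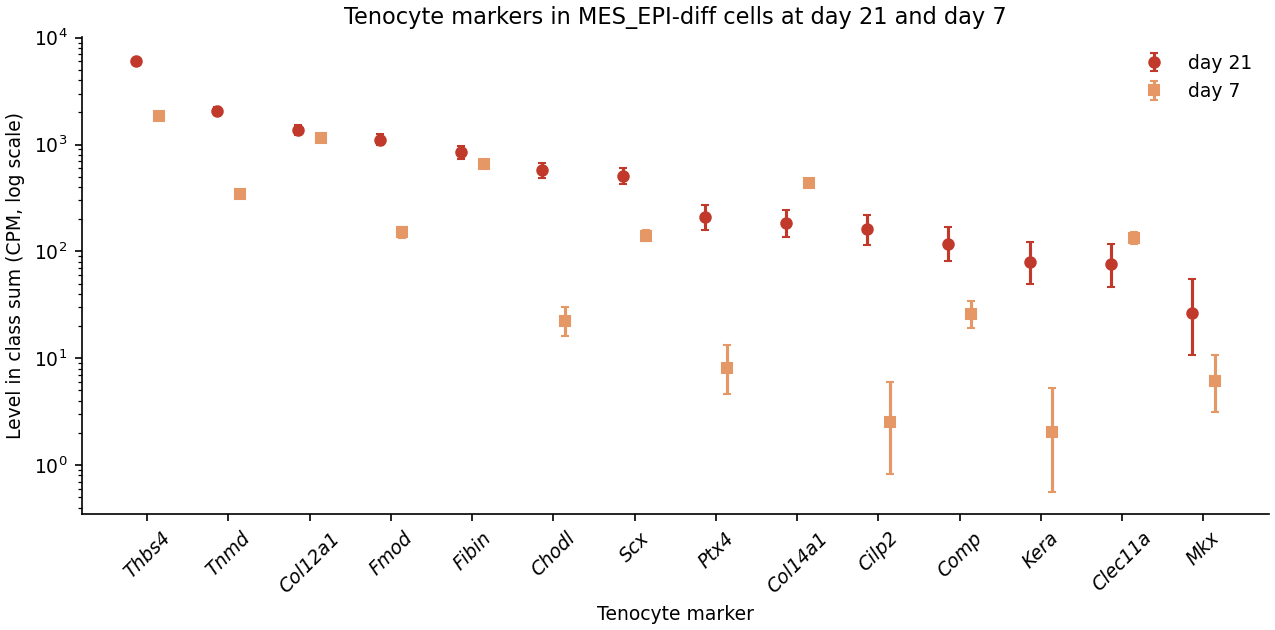
Level (CPM, log scale) of the 14 tenocyte markers in the MES_EPI-diff sums at day 21 (circles, 22 cells) and day 7 (squares, 94 cells), with 95% Poisson intervals, ordered by the day 21 level. Tnmd stands at 2058 CPM at day 21 and at 345 CPM at day 7, while Col12a1 is at 1367 and 1159 CPM.

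The class was not uniform at day 7. Of its 94 cells, 15 had fewer than 10000 UMIs (median 4925) and 79 had more (median 22903). Tnmd had 2240 CPM in the 15 shallow cells, with a UMI in 13 of them, against 262 CPM in the 79 deep cells, with a UMI in 29. Scx had 727 CPM in the shallow cells against 115 CPM in the deep cells, and Chodl had 230 CPM against 13.3 CPM. The shallow day 7 cells thus had Tnmd near the 2058 CPM of the day 21 sum. Thbs4 had 3718 CPM in the shallow cells against 1773 CPM in the deep cells, whereas Col1a1, the main fibrillar collagen chain, was alike at 18880 CPM and 18520 CPM.

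The shallow day 7 cells also carried transcripts of dividing cells. The histone gene Hist1h2ap had 2471 CPM there, 204 UMIs in 8 cells, against 19.7 CPM in the deep cells. The proliferation marker Mki67 had 72.7 CPM in the shallow cells (26.7 to 158.2), but from only 6 UMIs in 5 cells. In the deep cells it had 5.86 CPM from 11 UMIs in 8 cells. When each cell was assigned to the class sum its profile correlated with best, 87 of the 94 cells were nearest to their own class and 7 to MES_DIV, and all 7 were shallow cells. At day 21, 20 of 22 cells were nearest to their own class and 2 to MES_EPI. Because the classes were drawn from the expression of these same cells, nearness to the own class is a description and supports nothing. In the other direction 72 of 676 MES_EPI cells and 40 of 308 MES_DIFF cells at day 7 were nearest to the MES_EPI-diff sum, against 4 of 1027 and 12 of 387 at day 21. The part of doublets and of free RNA in these cells was not tested.

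Among the 79 deep day 7 cells, those with a Tnmd UMI had more of other tendon genes and, in their sums, less of Acta2 and Tagln. The 29 cells with a Tnmd UMI had a median of 22632 UMIs and the 50 without one 23157. Scx had 190.5 CPM in the 29 cells with Tnmd against 73.7 CPM in the 50 without it, Fmod had 239 against 102 CPM, and Col11a1, a collagen that nucleates thin fibrils, had 447 against 111 CPM. Acta2, smooth muscle actin, had 369 CPM in the cells with Tnmd against 668 CPM in those without it, and Tagln, an actin-binding protein of contractile cells, had 773 against 1337 CPM. A Tagln UMI was found in 24 of the 29 cells with Tnmd (82.8%) and in 39 of the 50 without it (78%), and an Acta2 UMI in 18 (62.1%) and 37 (74%). Of the 29 cells 1 held 133 of their 242 Acta2 UMIs and 149 of their 507 Tagln UMIs, and 1 of the 50 cells held 377 of their 1632 Tagln UMIs. At day 21 the split left 17 and 5 cells: Chodl had 785 CPM in cells with Tnmd against 87.7 CPM in those without, while Thbs4 had 5777 against 6819 CPM, so the 5 cells without Tnmd were not without tendon matrix. Pi16, the epineurial peptidase inhibitor, had 110 CPM in the 17 cells, from 20 UMIs in 6 of them. In the 5 cells it had 376 CPM from 30 UMIs in 4 of them, and 1 of these cells held 17 of the 30 UMIs.

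**Figure D3:**
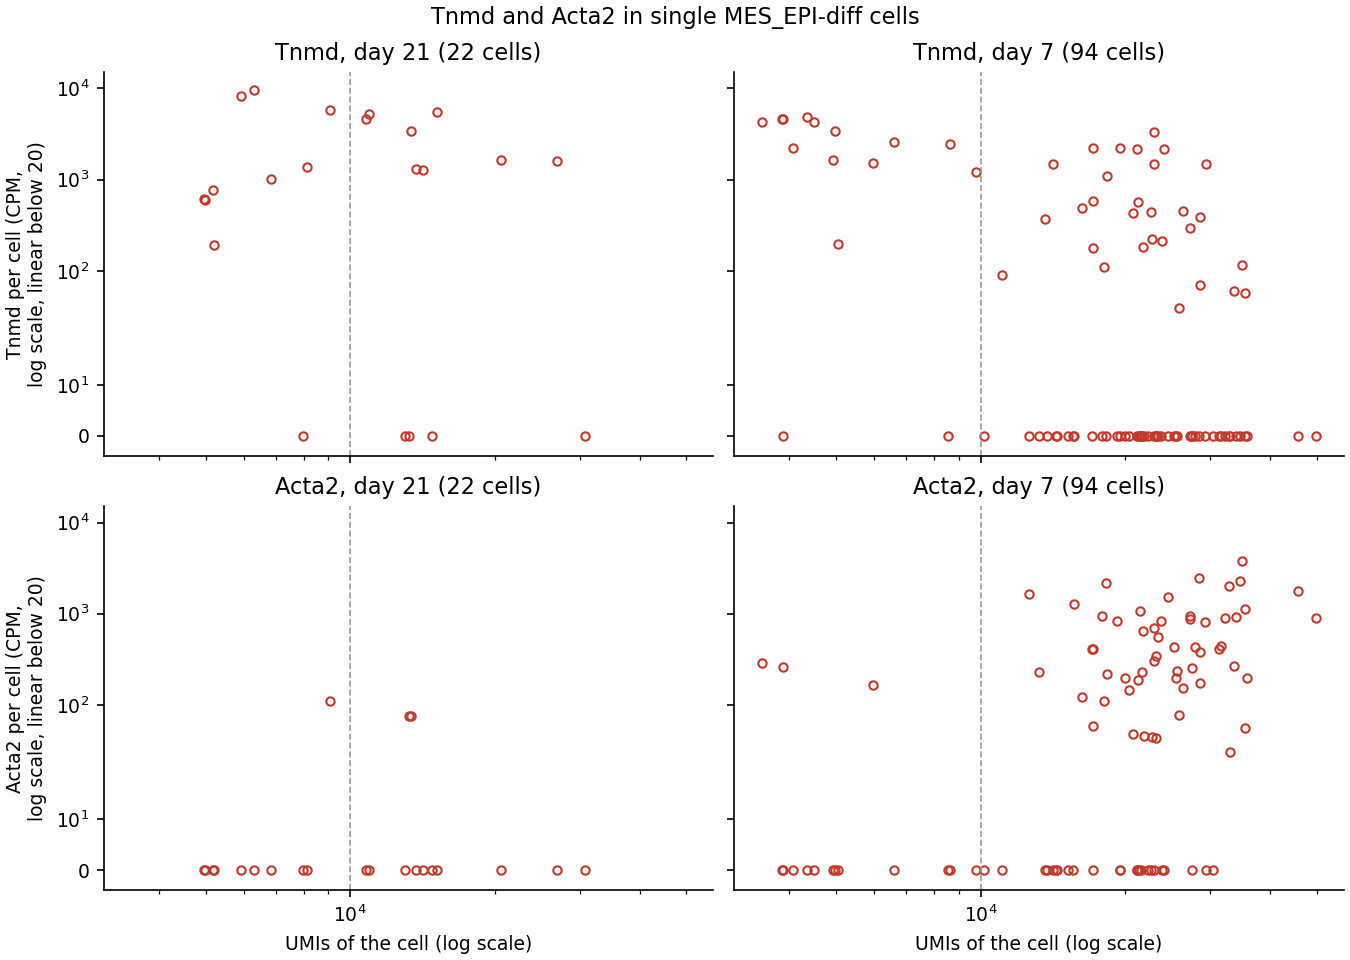
Tnmd (top) and Acta2 (bottom) in each MES_EPI-diff cell (CPM, log scale that is linear below 20) against the cell's UMIs (log scale), at day 21 (left, 22 cells) and day 7 (right, 94 cells); the dashed line marks 10000 UMIs. At day 7 13 of the 15 cells left of the line have a Tnmd UMI and 3 an Acta2 UMI.

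Several contractile genes were higher in the day 7 cells than in MES_EPI, and fewer of them than in MES_DIFF. Acta2 had 541 CPM in MES_EPI-diff, 35.0 CPM in MES_EPI and 119 CPM in MES_DIFF at day 7, with UMIs in 58 of the 94 MES_EPI-diff cells. Its ratios were 15.5 (13.9 to 17.3) and 4.53 (4.15 to 4.95). Tagln had 1098 CPM in MES_EPI-diff, 109 CPM in MES_EPI and 214 CPM in MES_DIFF. These genes were also found in MES_DIV cells at day 7, with an Acta2 UMI in 105 of 206 cells and a Tagln UMI in 109. The mean over single cells was 854 CPM in MES_DIV and 412 CPM in MES_EPI-diff for Acta2, and 588 and 826 CPM for Tagln. Of a list of contractile genes 9 of 11 were higher than in MES_EPI and 0 lower at day 7, the median log2 ratio being 1.35, and 3 of 11 were higher than in MES_DIFF and 0 lower, with a median of 0.56. Over all genes 3.12% were higher than in MES_EPI and 2.74% higher than in MES_DIFF. Among the smooth muscle markers Lmod1 and Pln had 0 UMIs in MES_EPI-diff at day 7, and Cnn1 had 10.2 CPM. Actg2, an enteric smooth muscle actin singled out after its value was seen, had 67.4 CPM, but 82 of its 132 UMIs lay in 1 cell.

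At day 21 Acta2 was low, and most Tagln UMIs lay in 2 cells. Acta2 had 3 UMIs (11.5 CPM) in MES_EPI-diff, against 5.44 CPM in MES_EPI and 9.97 CPM in MES_DIFF. The day 21 level of Acta2 was 47.2-fold lower than that of day 7 (16.1 to 229). Tpm2, a tropomyosin, had 45.8 CPM at day 21 and 393 CPM at day 7. Tagln had 435 CPM in MES_EPI-diff at day 21, from 11 of 22 cells, against 14.1 CPM in MES_EPI and 88.5 CPM in MES_DIFF. Of its 114 UMIs 55 lay in 1 cell and 80 in 2 cells, and the median cell had 33.7 CPM. Of 11 contractile genes 0 were higher and 5 lower at day 21 than at day 7, the median log2 ratio being −0.91. Over all genes 9.82% were higher and 5.08% lower. Myh11, Cnn1, Lmod1, Des and Pln were all at 0 UMIs at day 21, which allows up to 11.5 CPM each.

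Injury matrix genes were high at both days. Tnc, the adhesion-modulating protein tenascin C of healing tissue and tendon, had 1298 CPM in MES_EPI-diff, 20.2 CPM in MES_EPI and 152 CPM in MES_DIFF at day 21, and 3054 CPM in MES_EPI-diff and 1765 CPM in MES_DIFF at day 7, when the MES_EPI-diff level was 12.2-fold that of MES_EPI. Postn, periostin, had 8515 CPM in MES_EPI-diff, 1888 CPM in MES_EPI and 2489 CPM in MES_DIFF at day 21, and 8580, 3856 and 4468 CPM at day 7. Cthrc1, a secreted collagen triple helix repeat protein, had 1264 CPM in MES_EPI-diff, 83.9 CPM in MES_EPI and 50.9 CPM in MES_DIFF at day 21, and 1531, 962 and 880 CPM at day 7. In MES_EPI-diff, Postn and Cthrc1 were thus close at both days and Tnc was lower at day 21, while MES_EPI and MES_DIFF had less of all 3 genes at day 21 than at day 7.

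Of the list of injury mesenchyme markers 7 of 7 were higher and 0 lower at day 21 against each class, with medians of 2.17 against MES_EPI and 2.62 against MES_DIFF, beside 7.51% and 6.85% of all genes higher. At day 7, 5 of 7 were higher than in MES_EPI and 3 of 7 than in MES_DIFF, with 0 lower in either, beside 3.12% and 2.74% of all genes higher. Lrrc15, a membrane protein of activated fibroblasts, differed from the rest: it had 235 CPM in MES_EPI-diff, 38.9 CPM in MES_EPI and 65.9 CPM in MES_DIFF at day 7, and only 2 UMIs (7.64 CPM) in MES_EPI-diff at day 21.

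Epineurial markers were mostly lower than in MES_EPI, but not lower than in MES_DIFF at day 21. Of that list 10 of 11 were lower than in MES_EPI at day 21 and 1 higher, with a median log2 ratio of −1.95. At day 7, 8 of 9 were lower and 0 higher, with a median of −3.95. Over all genes 9.71% were lower and 7.51% higher at day 21, and 8.17% and 3.12% at day 7. Against MES_DIFF 2 of 8 were higher and 0 lower at day 21, with a median of 0.54. The summed levels at day 21 were 2039 CPM in MES_EPI-diff and 2012 CPM in MES_DIFF. At day 7, 1 of 6 was higher than in MES_DIFF and 3 lower. Over all genes 6.85% were higher than in MES_DIFF and 10.9% lower at day 21, and 2.74% and 5.45% at day 7. Pi16 had 191 CPM in MES_EPI-diff, 651 CPM in MES_EPI and 107 CPM in MES_DIFF at day 21, and 8.17, 631 and 79.5 CPM at day 7. Dpp4, a membrane peptidase of the same fibroblasts, had 0 UMIs in MES_EPI-diff at day 21 and 1 at day 7, against 55.7 and 61.7 CPM in MES_EPI. Clec3b, the plasminogen-binding protein tetranectin, had 684 CPM in MES_EPI-diff, 2642 CPM in MES_EPI and 903 CPM in MES_DIFF at day 21, and 69.9, 1260 and 61.1 CPM at day 7. The gene that was higher than in MES_EPI at day 21 was Comp, which the list shares with the tenocyte markers. Comp, with 0 UMIs in MES_DIFF, was also 1 of the 2 members higher than in MES_DIFF at day 21. Of 8 epineurial members 6 were higher at day 21 than at day 7 within MES_EPI-diff and 0 lower, with a median of 1.92. Over all genes 9.82% were higher and 5.08% lower between these days.

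By its summed profile the class stood nearer to MES_DIFF at day 7 and, by a small margin, nearer to MES_EPI at day 21. Pearson's r of log2 CPM over 3545 genes was 0.914 with MES_DIFF, 0.888 with MES_EPI, 0.756 with MES_ENDO and 0.732 with MES_PERI at day 7. Over 4035 genes at day 21 it was 0.835 with MES_EPI, 0.816 with MES_DIFF, 0.756 with MES_ENDO and 0.677 with MES_PERI. Between the day 21 and day 7 sums of the class itself it was 0.79 over 2785 genes. Single cells gave the other order at day 21. Over 2744 genes the median r of the 22 cells was 0.552 with the MES_DIFF sum and 0.535 with the MES_EPI sum. At day 7 the medians of the 94 cells were 0.649 and 0.599, so the order at day 21 depended on the measure. These correlations are across genes, which are not independent, and the day 21 sum of the class has the fewest UMIs of these sums; the part of depth in r was not tested.

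At day 7, 35 genes were at least 2-fold higher than in both other classes (1.29% of 2706) and 70 at least 2-fold lower than in both (2.59%). Ranked by the smaller of the 2 ratios, the first 15 higher genes were Scx, Tnmd, Hist1h2ap, Tagln, Thbs4, Acta2, C1qtnf3, Pdgfa, Rflnb, Col11a1, Fibin, Lrrc15, Enpp1, Col12a1 and Ddah1. C1qtnf3, a secreted protein of the C1q and TNF family known from cartilage, had 1249 CPM in MES_EPI-diff, 300.4 CPM in MES_EPI and 59.1 CPM in MES_DIFF. Pdgfa, a ligand of the receptor PDGFRα, had 131 CPM in MES_EPI-diff, 25.6 CPM in MES_EPI and 34.0 CPM in MES_DIFF. Col11a1 had 233 CPM in MES_EPI-diff, 59.7 CPM in MES_EPI and 63.7 CPM in MES_DIFF. It was not particular to the class at day 7, with a UMI in 197 of 255 MES_ENDO cells (77.25%) and 61 of 94 MES_EPI-diff cells (64.9%). At day 21 these shares were 40.0% and 77.3%. Enpp1, which makes the mineralisation inhibitor pyrophosphate, had 72.6 CPM in MES_EPI-diff, 4.08 CPM in MES_EPI and 5.63 CPM in MES_DIFF at day 21. At day 7 it had 14.5 CPM in MES_EPI and 29.9 CPM in MES_DIFF. In MES_EPI-diff it had 196 of the 1959324 UMIs of the day 7 sum, which is a raw count and not a CPM value.

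Of these 15 genes 12 were at least 2-fold higher than in both classes at day 21 too, the exceptions being Acta2, Lrrc15 and Hist1h2ap. C1qtnf3 had 267 CPM in MES_EPI-diff, 34.5 CPM in MES_EPI and 4.35 CPM in MES_DIFF at day 21, Pdgfa had 233, 15.5 and 17.1 CPM, and Col11a1 had 286, 5.73 and 14.1 CPM. Ddah1, which breaks down methylated arginine, had 233 CPM in MES_EPI-diff, 6.02 CPM in MES_EPI and 5.88 CPM in MES_DIFF. Hist1h2ap rested on shallow cells: without cells under 10000 UMIs its log2 ratios were 0.43 against MES_EPI and −0.15 against MES_DIFF, in place of 3.05 and 2.47. Over genes that passed the minimum in both libraries, 53 were higher than in MES_EPI at both days, which is 84.1% of the 63 called at day 7 and 37.1% of the 143 called at day 21. Against MES_DIFF 51 genes were higher at both days, 73.9% of 69 and 32.7% of 156.

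At day 21, 135 genes were at least 2-fold higher than in both classes (4.6% of 2934) and 126 at least 2-fold lower (4.29%). The first 6 by rank were Ptx4, Col22a1, Scx, Chodl, Cilp2 and Kera, all described above. Spp1, the secreted phosphoprotein osteopontin, was high in both libraries but in a different order of classes: it had 347.5 CPM in MES_EPI-diff, 4.47 CPM in MES_EPI and 17.4 CPM in MES_DIFF at day 21, and 194, 41.6 and 1127 CPM at day 7. At day 21 58 of its 91 UMIs came from 1 cell.

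**Figure D4:**
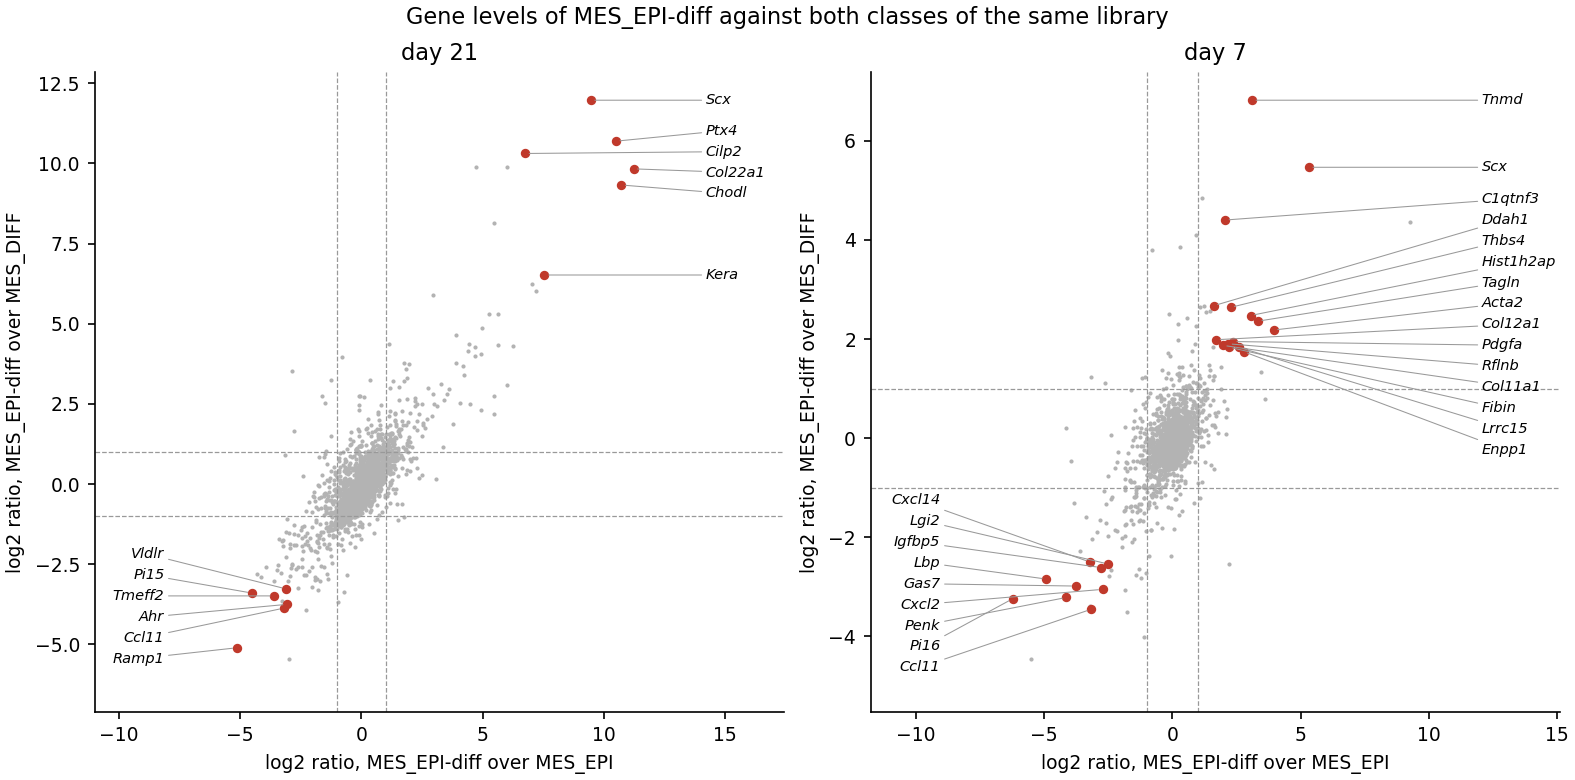
Each point is a gene with at least 50 CPM in the higher sum of both comparisons, placed by its log2 ratio of MES_EPI-diff over MES_EPI (horizontal) and over MES_DIFF (vertical), with 0.5 counts added to each sum, at day 21 (left) and day 7 (right); dashed lines mark 2-fold and genes the text names by rank are red. Tnmd at day 7 lies at 3.10 and 6.82; ratios to a sum with 0 UMIs, such as Scx over MES_DIFF at day 21, depend on the added count.

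The genes lower than in both classes at day 7 included, by rank, Pi16, Penk, Ccl11, Gas7, Lbp, Cxcl2, Igfbp5, Lgi2 and Cxcl14. Penk, the enkephalin precursor, had 5.61 CPM in MES_EPI-diff, 103 CPM in MES_EPI and 54.4 CPM in MES_DIFF at day 7. Ccl11, the eosinophil chemokine eotaxin, had 22.9 CPM in MES_EPI-diff, 230 CPM in MES_EPI and 363 CPM in MES_DIFF at day 21, and 10.2, 94.1 and 114.5 CPM at day 7. Igfbp5, an IGF-binding protein, had 214 CPM in MES_EPI-diff, 2114 CPM in MES_EPI and 737 CPM in MES_DIFF at day 21, and 285, 1983 and 1743 CPM at day 7. Ccl11 and Igfbp5, both secreted, were lower at both days.

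At day 21 the lower genes were led by Ramp1, Tmeff2, Pi15, Ccl11, Vldlr and Ahr. Ramp1, a subunit of the receptor for the neuropeptide CGRP, had 0 UMIs in MES_EPI-diff against 67.9 CPM in MES_EPI and 65.7 CPM in MES_DIFF, at least 5.92-fold and 5.74-fold lower. With so small a sum, 0 UMIs allow up to 11.5 CPM. Gdf10, a TGF-beta family ligand, had 1 UMI in MES_EPI-diff at day 21 (3.82 CPM) and 1 at day 7 (0.510 CPM), against 349 and 112 CPM in MES_EPI.

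Complement, chemokine and WNT lists had more members lower than higher against MES_EPI. Members that passed the minimum only because they were high in MES_EPI had to be lower, so these counts, too, are a description. Over all genes 9.71% were lower at day 21 and 8.17% at day 7. Complement genes were lower in 8 of 8 at day 21 and 0 higher, with a median log2 ratio of −2.71 where the 1 gene at 0 is put at its bound, and in 8 of 9 at day 7 with 1 higher and a median of −2.67. C3, the central complement protein, had 3.82 CPM in MES_EPI-diff and 282 CPM in MES_EPI at day 21, and 13.8 and 271 CPM at day 7. Serping1, the C1 inhibitor, had 321 CPM in MES_EPI-diff and 1844 CPM in MES_EPI at day 21, and 165 and 1055 CPM at day 7. Chemokines and cytokines were lower in 9 of 13 at day 21 and 11 of 13 at day 7, with 0 higher at either day. Il6, an inflammatory cytokine, had 95.5 CPM in MES_EPI-diff and 284 CPM in MES_EPI at day 21, and 36.8 and 213 CPM at day 7.

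Members of the WNT list were lower in 6 of 8 at day 21 and 6 of 10 at day 7 against MES_EPI, with 0 higher and medians of −1.91 and −1.72. The secreted WNT antagonists Sfrp1 and Sfrp2 were among them. Sfrp1 had 26.7 CPM in MES_EPI-diff, 320.5 CPM in MES_EPI and 183 CPM in MES_DIFF at day 21, and Sfrp2 had 64.9, 489.5 and 5.63 CPM. In the hedgehog list, 4 of 7 were lower and 1 higher than in MES_DIFF at day 21, beside 10.9% lower and 6.85% higher over all genes. Ptch1, the receptor and target gene of the pathway, had 22.9 CPM in MES_EPI-diff, 101 CPM in MES_EPI and 232 CPM in MES_DIFF. These lists were written with earlier results of these data known.

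**Figure D5:**
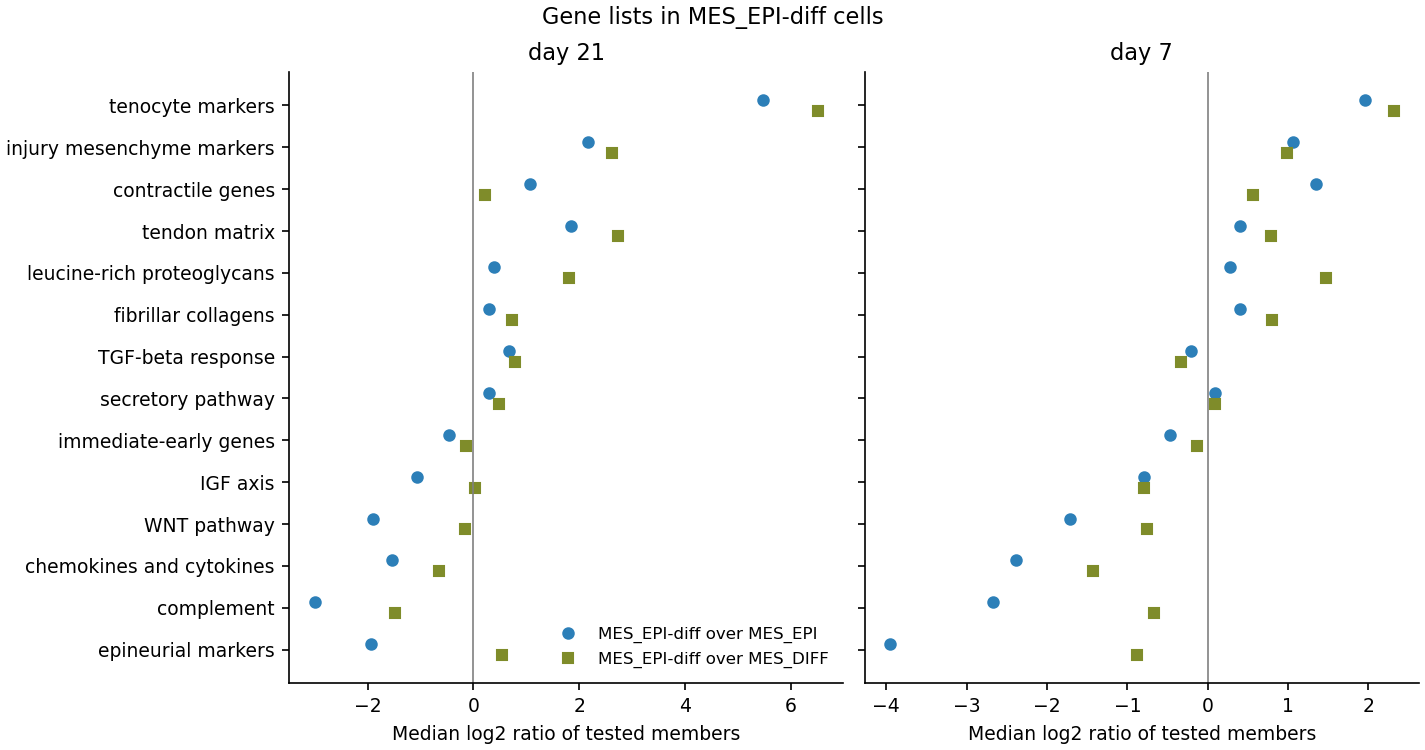
Median log2 ratio of the members that passed 50 CPM in 14 gene lists, for MES_EPI-diff over MES_EPI (circles) and over MES_DIFF (squares), at day 21 (left) and day 7 (right). The tenocyte medians at day 21 are 5.47 and 6.52, and the epineurial medians over MES_EPI are −1.95 at day 21 and −3.95 at day 7.

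The bulk of the collagen was shared with the other classes. Col1a1 had 17060 CPM in MES_EPI-diff, 12140 CPM in MES_EPI and 9411 CPM in MES_DIFF at day 21, and 18540, 17920 and 10710 CPM at day 7. Of 8 fibrillar collagen genes 2 were higher than in MES_EPI at each day and 0 lower, Col11a1 among them at both. Over all genes 7.51% were higher and 9.71% lower than in MES_EPI at day 21, and 3.12% and 8.17% at day 7. Of 18 genes of the secretory pathway 0 were higher and 0 lower in any of the 5 comparisons, with medians between 0.08 and 0.48. Over all genes 2.74% to 9.82% were higher and 5.08% to 10.9% lower in these comparisons. Among the small leucine-rich proteoglycans, Dcn, decorin, was at 6480 CPM in MES_EPI-diff, 12100 CPM in MES_EPI and 9287 CPM in MES_DIFF at day 21, and at 1268, 4600 and 2513 CPM at day 7. Aspn, asporin, had 2604 CPM in MES_EPI-diff, 777.5 CPM in MES_EPI and 283.5 CPM in MES_DIFF at day 21, and 2373, 849.5 and 399 CPM at day 7. Tnxb, the tenascin X of loose connective tissue, was low at 84.0 CPM in MES_EPI-diff against 679 CPM in MES_EPI at day 21, and at 9.70 against 435.5 CPM at day 7.

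Growth factor transcripts differed one by one. Ptn, the heparin-binding growth factor pleiotrophin, had 2119 CPM in MES_EPI-diff, 726 CPM in MES_EPI and 260.0 CPM in MES_DIFF at day 21, and 2536, 817 and 1066 CPM at day 7. Vegfa, the vascular endothelial growth factor, had 7.64 CPM in MES_EPI-diff, 187 CPM in MES_EPI and 67.2 CPM in MES_DIFF at day 21, and 17.9, 71.5 and 82.5 CPM at day 7. Gdnf, a neurotrophic factor, had at most 3.01 CPM in any of these sums. Tgfb3, a TGF-beta ligand, had 221.5 CPM in MES_EPI-diff, 135 CPM in MES_EPI and 55.5 CPM in MES_DIFF at day 21, and 251, 155 and 123 CPM at day 7.

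The genes with the largest day 21 over day 7 ratios in the class, beside tendon genes, included Tac1, Itih5 and Pi16. Tac1, the substance P precursor, had 233 CPM at day 21 and 4.59 CPM at day 7, but 44 of its 61 UMIs at day 21 lay in 1 cell. Itih5, a hyaluronan-associated protein, had 1039 CPM at day 21 and 27.1 CPM at day 7, with 887 CPM in MES_EPI and 938 CPM in MES_DIFF at day 21.

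Lower at day 21 than at day 7 were Acta2, Lrrc15, Hist1h2ap, Serpine2, Tpm2, Nov, Ctsc and Ifi27l2a, the first 8 by rank. Serpine2, a protease inhibitor, had 7.64 CPM at day 21 and 178 CPM at day 7, and Nov, a matricellular protein, had 30.6 and 228 CPM. The first 3 have been described above.

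Markers of other cell types were mostly low. Of 8 endothelial markers 7 were at 0 UMIs at day 21 and 1 at day 7, with summed levels of 7.64 CPM in MES_EPI-diff, 95.7 CPM in MES_EPI and 156 CPM in MES_DIFF at day 21, and 27.1, 51.6 and 91.7 CPM at day 7. The 9 myeloid markers summed to 19.1 CPM at day 21 and 23.0 CPM at day 7, the 12 skeletal muscle markers to 3.82 and 12.8 CPM, and the 8 granulocyte and mast cell markers to 0 at both days. Cartilage markers summed to 107 CPM at day 21 and 163 CPM at day 7, with 8 of them at 0 at day 21 and 6 at day 7, and bone markers to 53.5 and 67.9 CPM. The 9 Schwann cell markers summed to 431.5 CPM in MES_EPI-diff, 554 CPM in MES_EPI and 406 CPM in MES_DIFF at day 21, and to 77.6, 264 and 98.2 CPM at day 7. The class thus carried no more of any of these lists than MES_EPI did at day 21, apart from the cartilage and bone lists, where MES_EPI had 72.8 and 33.4 CPM.

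UMIs of Xist and of Y-linked genes were both present in the pools, and their shares differed between classes. At day 7, 51 of 94 MES_EPI-diff cells (54.3%, 43.7% to 64.6%) had a UMI of Xist, the X-inactivation RNA of female cells, and no UMI of 4 Y-linked genes, against 170 of 676 MES_EPI cells (25.15%) and 96 of 308 MES_DIFF cells (31.2%). Y-linked UMIs without Xist were found in 23 MES_EPI-diff cells (24.5%), 355 MES_EPI cells (52.5%) and 167 MES_DIFF cells (54.2%). At day 21 the Xist shares were 8 of 22 cells (36.4%, 17.2% to 59.3%), 291 of 1027 (28.3%) and 87 of 387 (22.5%). At day 7 the share with Xist was higher in MES_EPI-diff than in both other classes by more than counting error.

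All classes were also restricted to cells with Xist and no Y-linked UMI, a choice made after seeing these data. Of 626 gene ratios 275 then moved outside their counting interval and 3 changed sign, and of the 10 counts of differing genes 3 moved by over 1.5 times. The log2 ratios to MES_EPI at day 7 were 3.75 for Tnmd, 4.96 for Scx, 1.80 for Thbs4, 1.31 for Col12a1 and 4.25 for Acta2, in place of 3.10, 5.32, 2.27, 1.71 and 3.95. At day 21, with 8 MES_EPI-diff cells, they were 6.69 for Tnmd, 8.72 for Scx, 11.80 for Chodl and 5.33 for Thbs4.

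Over the 15 class sums of at least 20 cells in the 3 libraries, the genes whose log2 level was most like that of Tnmd were Tubb2a (Pearson's r 0.882), Itpripl2 (0.842), Chodl (0.824), Xpnpep1 (0.82), Scx (0.816), Calu (0.816), Ptx4 (0.816), Loxl2 (0.81), Cacna2d1 (0.804) and Col22a1 (0.804). The sums share libraries and differ in depth, and the MES_EPI-diff sums weigh heavily in each r, so the list is a description. Tubb2a, a beta tubulin, had 531 CPM in the class at day 21 and 335 CPM at day 7, and Loxl2, a collagen cross-linking enzyme, had 416 and 307 CPM.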

How the data were processed

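Droplet single-cell RNA sequencing was deposited as 1 matrix of UMI counts for each of 3 libraries, with 53380 features; per the file headers the counts were written by Cell Ranger 6.1.2, and the submitters' processing notes name Cell Ranger 3.0.2 and 6.1.2, Seurat 4.0.1 and the mouse mm10 assembly. The authors' deposited cell table gave the classes, and 7234 of its 7235 cells were found, 1 was not; they had at least 2012 UMIs and 1001 genes, out of 14703 barcodes. No doublet caller was run, and an alternative left out cells above 2 times the median UMIs of their class. Counts were summed by class and library and given as CPM; log2 ratios used 0.5 added counts. A gene entered a comparison at 50 CPM or more in the higher sum and was counted as different at 2-fold or more. Against a sum of 0 a bound was computed with 3 counts.

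The members and the gene lists were chosen with earlier results of these data known. Named genes reached 50 CPM, were found in 10% or more of the cells of the higher class and were ranked by the smaller of the ratios to MES_EPI and MES_DIFF: the first 15 higher and 10 lower at day 7, 6 each way at day 21 (at least 10 UMIs) and 8 each way between days (at least 100 CPM and 20% of cells), plus the markers and up to 4 members per list. Mitochondrial, ribosomal, haemoglobin, unnamed, sex-linked and transgene features were left out of the ranks. Some items are not reported here. Alternatives were equal weight for each cell, thinning to 2000 UMIs, minimums of 20 and 100 CPM, 1 added count, median centring, and cell sets. Computation used Python 3.11.15, numpy 2.4.6, pandas 2.3.3, scipy 1.17.1 and matplotlib 3.10.9; the counting was tested on simulated data. Depth was 51898719 UMIs at day 21, 58155334 at day 7 and 11509106 in intact nerve.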

Additional observations from a re-analysis of the deposited data

Results flagged for a closer look

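Against MES_EPI, 3 genes lay on opposite sides at the 2 days, past 2-fold at both; none of these differences between days was tested. Ctgf, a matricellular growth factor also called CCN2, had a log2 ratio of 1.18 at day 21 and −1.51 at day 7. Ctsc, a lysosomal protease, was at −1.80 at day 21 and 1.62 at day 7. Serpine2 was at −3.02 at day 21 and 1.07 at day 7.

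Against MES_DIFF, 3 further genes turned in the same way, also untested. Cxcl14, a chemokine, had a log2 ratio of 1.08 at day 21 and −2.50 at day 7. Spp1 was at 4.32 at day 21 and −2.54 at day 7, with 58 of its 91 UMIs at day 21 in 1 MES_EPI-diff cell. Timp3, an inhibitor of matrix proteases, was at 1.09 at day 21 and −1.72 at day 7.

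Outside the annotated cells, barcodes without a class held Tnmd. At least 5 Tnmd UMIs were found in 5 such barcodes at day 21 and in 11 at day 7, against 0 in the intact library. Tnmd was still present in the intact library, where 54 barcodes without a class held 81 of its 105 Tnmd UMIs. Summed over all barcodes without a class, Tnmd had 25.8 CPM in intact nerve, 11.55 CPM at day 7 and 7.80 CPM at day 21. Their median UMIs were 2076, 2499 and 4368. The barcodes without a class were not used in any comparison.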

How the results depend on the processing

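The 10 counts of genes that differed at least 2-fold stayed within 1.5 times of their values with each cell weighted alike, with median centring, with 1 count added, without cells above 2 times the median UMIs and without cells under 10000 UMIs. They moved with the CPM minimum and with thinning to 2000 UMIs. Against MES_EPI at day 7 the 90 higher genes became 197 with thinning and 180 with a 20 CPM minimum, and the 236 lower became 411 at 20 CPM and 148 at 100 CPM. Against MES_DIFF at day 7 the 80 higher became 169 with thinning and 147 at 20 CPM, and the 159 lower became 310, 303 and 82 with thinning, 20 CPM and 100 CPM. Against MES_EPI at day 21, with the same settings in that order, the 232 higher became 742, 555 and 124 and the 300 lower became 451, 645 and 175. Against MES_DIFF at day 21 the 224 higher became 674, 500 and 133 and the 355 lower became 550, 790 and 167. Between day 21 and day 7 the 292 higher became 792, 744 and 151 and the 151 lower became 368, 376 and 68. The cause was not tested. With cells that had Xist and no Y-linked UMI, an alternative added after seeing the data like that of 10000 UMIs, 364 genes were higher than in MES_EPI at day 21, and 497 were higher and 288 lower at day 21 than at day 7.

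At day 7 thinning gave shares of cells with a UMI of 33.0% for Tnmd, 26.6% for Scx and 83.0% for Thbs4 and for Col12a1, and asking for 2 UMIs gave 41.5% for Scx. Of the named genes Hist1h2ap turned against MES_DIFF at day 7, to −0.15 on the log2 scale without cells under 10000 UMIs and −0.059 in cells with Xist only. In those cells Eln was at −1.18 against MES_DIFF at day 21 and −2.25 between days, with 8 MES_EPI-diff cells at day 21. Thinned, Epha3 and Inhba were at 0.51 and 0.17 between days, and with equal weight the median of the WNT list between days was −0.006. Among 626 gene ratios, 498 moved by less than their counting interval with each cell weighted alike and 563 without cells above 2 times the median UMIs, but 297 with thinning and 348 in cells with Xist only. No paired analysis was possible because each group had 1 library and the labels give no replicate numbers.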

Other observations

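Of 19 immediate-early genes 5 were higher and 1 lower in MES_EPI-diff at day 21 than at day 7, and their median log2 ratio was 0.73. Over all genes 9.82% were higher and 5.08% lower between these days. Axon guidance genes were lower than in MES_DIFF in 5 of 9 at day 21 and 4 of 5 at day 7, with 0 higher at either day. Over all genes 10.9% were lower than in MES_DIFF and 6.85% higher at day 21, and 5.45% and 2.74% at day 7. Members that passed the minimum only because they were high in 1 sum had to differ, so the counts of this paragraph are a description. Retinoid genes were lower than in MES_DIFF in 4 of 7 at day 7 and 1 higher. Perineurial markers were lower than in MES_DIFF in 7 of 7 at day 21, with a median of −3.69, or −3.51 with the 1 gene at 0 at its bound.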
